A study of Homo sapiens with 3 samples.

Results

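The regions described here are H3K4me3 peaks interrupted along their length in a second mark, H3K27ac. They were selected on measured values: an H3K4me3 peak on chromosomes 1 to 22 was taken if it was narrower than 8000 bp and overlapped 2 or more separate H3K27ac peaks by at least 1 bp. Of 31074 autosomal H3K4me3 peaks, 3681 met the rule, or 11.8%. Both peak lists came from HCC1599 cells, for which the labels name no treatment, and which are an established line from a triple-negative breast cancer known for its dependence on Notch signalling, which the series calls MARCO-TST positive. There was 1 chromatin immunoprecipitation library for each mark, made with an Active Motif antibody for H3K27ac and a Cell Signaling antibody for H3K4me3, and an input library that was not analysed here. With 1 library per mark there was no replicate check, no test was run, and the depth behind the peaks is unknown. Each peak carries a score that is the authors' own and has no unit in the labels or the lists. Most strong peaks share the value 3100 and cannot be ranked among themselves. Scores serve here to describe, rank and filter peaks of 1 list and are not levels of the mark.

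H3K4me3, the trimethylated form of lysine 4 of histone H3, marks nucleosomes around active and poised gene starts. H3K27ac marks nucleosomes at active starts and at active enhancers. Just before an active start lies a short stretch depleted of nucleosomes, where transcription factors and RNA polymerase bind, and a mark carried by nucleosomes can be low there while it is high on either side. In the following, a gap is the run of bases between the end of one H3K27ac peak and the beginning of the next inside the same H3K4me3 peak. A gap shows where no H3K27ac peak was called, not that the mark was absent.

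The form is clearest in 4 promoters where a gap lay over the annotated start and both H3K27ac peaks beside it had among the highest scores. Their sequences are from RefSeq (GRCh38.p14), 5′ to 3′ on the strand of the gene, and run from 250 bases before the start to the first 50 bases of the transcript. Capitals mark bases inside the H3K27ac gap. BANP lies on the + strand at chr16:87951184-87951483, SPPL3 on the - strand at chr12:120904309-120904608, TOB2 on the - strand at chr22:41446752-41447051 and UBP1 on the - strand at chr3:33440356-33440655.
BANP: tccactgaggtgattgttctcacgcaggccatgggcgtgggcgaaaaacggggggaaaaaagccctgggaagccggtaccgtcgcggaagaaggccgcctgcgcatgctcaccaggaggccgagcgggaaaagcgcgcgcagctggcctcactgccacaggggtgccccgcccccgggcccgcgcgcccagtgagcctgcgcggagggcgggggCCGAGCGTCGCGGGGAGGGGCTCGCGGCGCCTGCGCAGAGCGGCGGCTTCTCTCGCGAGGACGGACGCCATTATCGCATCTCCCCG
SPPL3: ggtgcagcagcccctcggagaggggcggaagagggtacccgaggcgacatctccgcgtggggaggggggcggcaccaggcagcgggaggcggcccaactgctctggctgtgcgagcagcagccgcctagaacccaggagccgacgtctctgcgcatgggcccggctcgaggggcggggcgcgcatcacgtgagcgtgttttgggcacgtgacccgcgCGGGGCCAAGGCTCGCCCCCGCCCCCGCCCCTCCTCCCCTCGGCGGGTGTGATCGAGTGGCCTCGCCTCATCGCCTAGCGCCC
TOB2: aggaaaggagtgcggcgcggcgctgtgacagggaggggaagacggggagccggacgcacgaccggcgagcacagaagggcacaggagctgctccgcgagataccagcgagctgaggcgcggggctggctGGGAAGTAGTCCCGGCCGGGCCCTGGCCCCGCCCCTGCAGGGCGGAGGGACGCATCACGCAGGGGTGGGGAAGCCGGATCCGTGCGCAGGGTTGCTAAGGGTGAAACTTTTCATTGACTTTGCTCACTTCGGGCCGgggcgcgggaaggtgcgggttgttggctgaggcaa
UBP1: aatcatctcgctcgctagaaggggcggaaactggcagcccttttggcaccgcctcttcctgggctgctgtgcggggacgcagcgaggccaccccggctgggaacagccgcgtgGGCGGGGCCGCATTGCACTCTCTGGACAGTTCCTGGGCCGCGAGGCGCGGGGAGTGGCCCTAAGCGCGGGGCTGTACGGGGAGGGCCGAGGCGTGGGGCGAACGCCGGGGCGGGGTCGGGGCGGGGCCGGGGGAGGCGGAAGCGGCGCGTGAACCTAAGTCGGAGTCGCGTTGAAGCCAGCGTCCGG
The gap took up 86, 83, 136 and 187 of the bases shown for BANP, SPPL3, TOB2 and UBP1. All 4 stretches were rich in G and C, with 72%, 74.3%, 68.7% and 72.7% of bases, and all 4 held the GC box GGGCGG on one strand or the other. The gap of BANP, which encodes a DNA-binding protein that recognises a CG-rich element, held no GC box. It held the string CTCGCGAG, a core of that element.

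The BANP gap was 220 bp wide and ran from -36 to 183 bp, counted from the start with positive values into the gene. Such distances follow the direction of the gene and were not checked against its far end. The H3K27ac peak before it was 7452 bp wide and the one after it 5949 bp, and both scored 3100. SPPL3, an intramembrane protease, had a gap of 103 bp between peaks of 8953 and 4359 bp, again both at 3100. TOB2, an antiproliferative protein, had 4 H3K27ac peaks in its H3K4me3 peak, and the gap over its start was 136 bp, between peaks scoring 3100 and 2702. UBP1, a transcription factor, had a gap of 195 bp between peaks scoring 2137 before the start and 2444 after it. In these 4 members a short break separated H3K27ac peaks that were themselves far wider than it.

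The same arrangement held for the other 6 members with a gap over a start and the strongest lower-scoring neighbour. IRS2, an adaptor of insulin signalling, had a gap of 317 bp, the widest of the 10. The gaps were 197 bp at GTPBP2, 100 bp at the H3K4 methyltransferase gene KMT2B, 204 bp at the corepressor gene RCOR3, 133 bp at the dystroglycan gene DAG1 and 114 bp at ACBD5. At KMT2B the H3K4me3 peak ended at position 35718088 of chromosome 19, only a few bases past the gap, while the H3K27ac peak beyond it ran on for 2325 bp. These 10 were chosen by where the gap lay and by their scores, so both are a description.

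**Figure D1:**
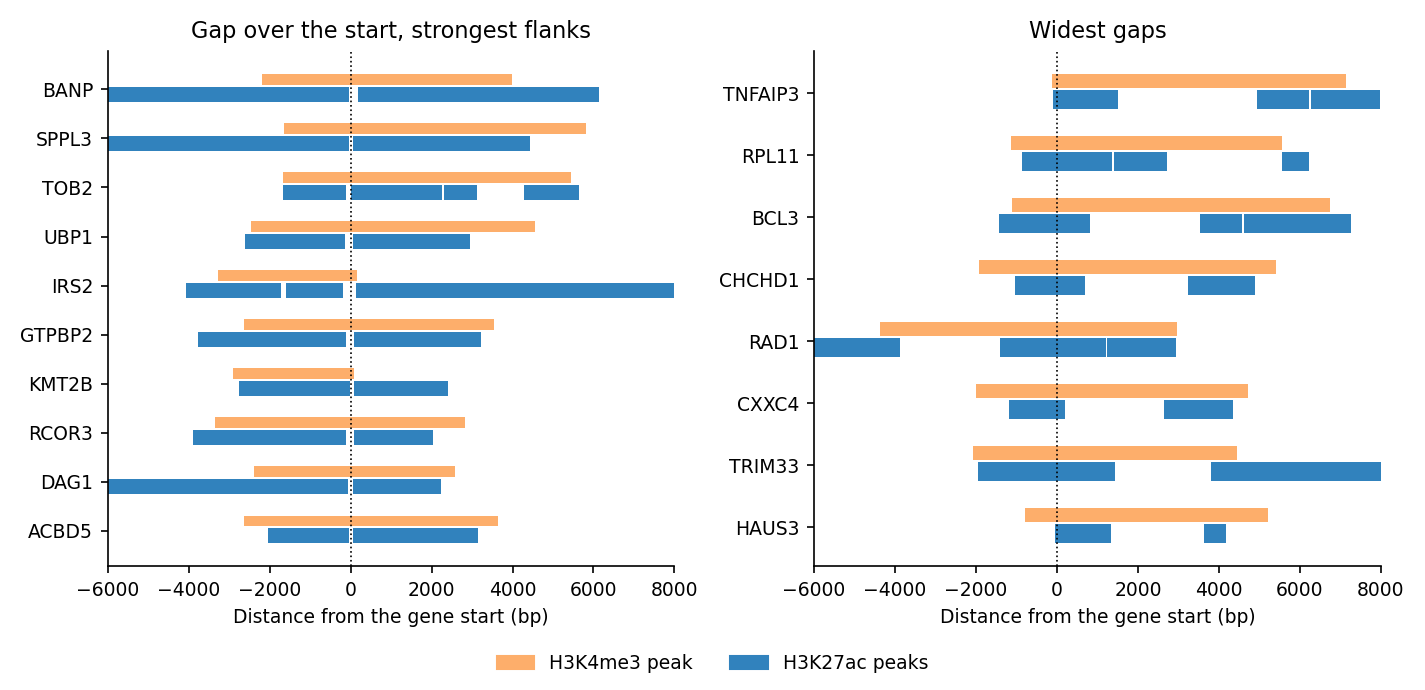
H3K4me3 peaks (orange) and the H3K27ac peaks that overlap them (blue) along the distance in bp from the annotated gene start, positive into the gene, for the 10 members with a gap over a start and for the 8 of the 10 widest gaps whose start is in the table. Peaks that reach past the axis are cut off. Gaps in the left panel lie at the start and are between 100 and 317 bp wide. Those in the right panel are over 2000 bp wide and, except at RAD1, lie downstream of the start of the named gene. They were not checked against its far end.

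Most members held no more H3K27ac peaks than the rule required. There were 3210 members with 2 (87.2%), 417 with 3 (11.3%), 46 with 4 and 8 with 5, so "several" peaks was in most cases a pair. Nor were the H3K27ac peaks always contained: in 1574 members (42.8%) they stayed within both edges of the H3K4me3 peak, while in 23.2% they ran past both. Together the members touched 7853 different H3K27ac peaks, 11.1% of the autosomal ones, and 42 of these were shared between neighbouring members.

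The pair was usually unequal. The higher of the H3K27ac scores in a member had a median of 586 (quartiles 224 and 1528) and the lower a median of 65.8 (41.4 and 141). The median ratio of the lowest to the highest score was 0.188. In 2444 members (66.4%) the weakest peak scored under 100, and in 113 it reached 1000 or more. The typical member therefore had H3K27ac peaks of unequal score. Widths were unequal too: the widest peak had a median width of 1800 bp and the narrowest 775 bp. Scores and widths were ranked separately here, so the strongest peak of a member need not be its widest. The strongest peak of a member was no stronger than the single peak of H3K4me3 peaks with 1 H3K27ac peak, whose median score was 580.

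Members were wide. Their median width was 3659 bp (quartiles 2460 and 4819), against 1904 bp for the 18148 H3K4me3 peaks with 1 H3K27ac peak and 993 bp for the 8893 with none. The H3K4me3 score was 3100 or more in 72.6% of members, in 38.4% of peaks with 1 and in 8.49% of peaks with none. A wider peak has more room to overlap a second H3K27ac peak, and the share of H3K4me3 peaks that were members rose from 2.42% under 1000 bp to 49.4% from 6000 to under 8000 bp. The place of members and their divergent pairs are therefore also compared within classes of width; the scores above and the sequence strings are not matched for width.

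Peaks just inside and just outside the width limit were alike. The 3 widest members were at HNRNPD, an RNA-binding protein gene (7988 bp), S100A10 (7985 bp) and C1orf116 (7981 bp). The 3 narrowest peaks outside the limit were at STC2 (8000 bp), AIRIM (8017 bp) and the translation factor gene EIF4B (8020 bp). The gaps were 147 bp at HNRNPD, 40 bp at S100A10 and 73 bp at C1orf116, and just outside they were 51, 215 and 84 bp. In all, 177 peaks of 8000 bp or more overlapped 2 or more H3K27ac peaks.

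The 3681 members held 4214 gaps, and most gaps were short. The median gap was 127 bp (quartiles 58 and 243), the narrowest was 1 bp and the widest 3437 bp. In the class under 100 bp were 1722 gaps (40.9%), from 100 to under 300 bp 1651 (39.2%), from 300 to under 1000 bp 654 (15.5%) and at 1000 bp or more 187 (4.44%). The wide gaps were found in 185 members, of which 176 (95.1%) lay at an end or a start of a protein-coding gene, against 74.4% of all members. These 185 were wide, with a median of 5355 bp. Chromatin was cut by sonication and micrococcal nuclease, and how the cutting and the peak caller set the shortest gaps was not tested.

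**Figure D2:**
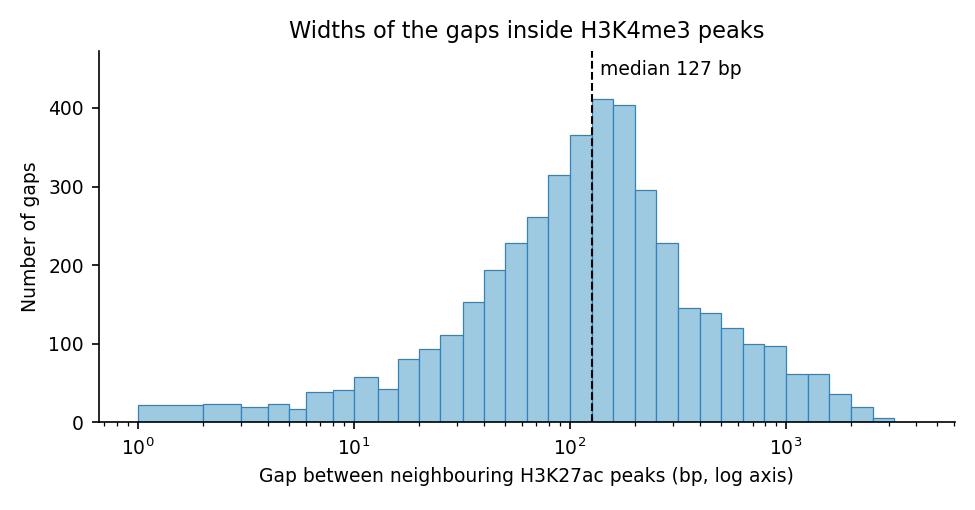
Number of gaps by width in bp (log axis) over all 4214 gaps, with the median as a dashed line. The counts form a single hump around the median of 127 bp with a tail to wide gaps, and no separate peak of wide gaps.

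The wider the member, the wider its gaps. The widest gap in a member had a median of 81.5 bp in members under 2000 bp, 126 bp from 2000 to under 4000 bp, 158.5 bp from 4000 to under 6000 bp and 214 bp from 6000 to under 8000 bp. Gaps of 1000 bp or more occurred in 0 of 704, 36 of 1442, 74 of 1116 and 75 of 419 members in these classes. Members with 3 or more H3K27ac peaks made up 0.852% of the narrowest class and 29.8% of the widest. The width of the member sets an upper bound on its gaps, so these values are not independent of it.

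Members lay mainly at protein-coding genes. Within 1 kb of an annotated end of such a gene were 2540 members, or 69.0% (95% interval 67.5% to 70.5%), against 41.1% of H3K4me3 peaks with 1 H3K27ac peak and 31.0% of those with none. Intervals are exact Clopper-Pearson intervals that cover counting error only, and neighbouring peaks are not independent. Within width classes the difference was smaller: the shares were 13.9% of members and 15.1% of peaks with 1 under 2000 bp, 73.9% and 63.5% from 2000 to under 4000 bp, 88.2% and 83.5% from 4000 to under 6000 bp, and 93.8% and 83.6% from there to the limit. The peaks with no H3K27ac peak had a higher share than the members under 2000 bp, 23.9%. Their share was nearly that of the members from 2000 to under 4000 bp, 72.8%, and from 4000 to under 6000 bp, 87.2% of only 39 peaks. What remained was a higher share in members than in peaks with 1 H3K27ac peak in each class from 2000 bp up.

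At genes with a start in the table, it was mainly the start and not the far end that lay in or near the members. Among the 3623 members on chromosomes for which starts were in the table, 2068 (57.1%) held or neared only a start, 57 (1.57%) only a far end, 281 (7.76%) both and 1217 (33.6%) neither. Only genes with a start in the table entered this split, so members at other genes can count as neither. Other H3K4me3 peaks were not split in this way. An annotated protein-coding start lay inside 2238 of the 3623 members (61.8%). By width class the share was 8.60%, 65.8%, 81.3% and 86.2%, against 6.65%, 56.7%, 78.5% and 76.8% for peaks with 1 H3K27ac peak. The intervals of 81.3% and 78.5% overlap. In peaks with none it was 13.8% under 2000 bp, above the members, and 64.7% from 2000 to under 4000 bp. From 4000 to under 6000 bp it was 75.9% of only 29 peaks with none.

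**Figure D3:**
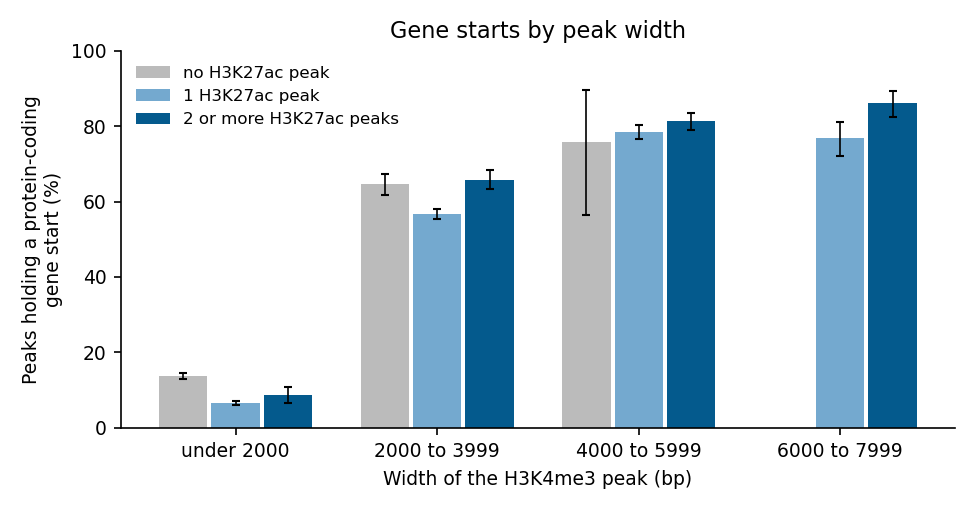
Share of H3K4me3 peaks (%) that hold an annotated protein-coding gene start, by width of the peak in bp, for peaks with no, 1, or 2 or more H3K27ac peaks, with exact 95% intervals as error bars; classes with fewer than 20 peaks are left out. The share is under 15% in the narrowest class of each group and over 50% in the next, and members reach 86.2% in the widest class against 76.8% of peaks with 1.

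Away from gene ends and starts the members looked different, and so did other H3K4me3 peaks. The 493 members inside a protein-coding gene, away from its ends and starts, had a median width of 1456 bp, a median H3K4me3 score of 147 and a median widest gap of 87 bp. At gene ends and starts the 2738 members had a median width of 4108.5 bp, a median H3K4me3 score of 3100 and a median widest gap of 153 bp. H3K27ac ran past both edges in 69.6% of the members inside genes, in 67.9% of the 184 outside genes and in 10.8% of those at gene ends and starts. Away from gene ends, then, most members were covered at both edges by H3K27ac peaks, and at gene ends and starts few were, BANP among those.

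The 8 members away from gene ends whose lower-scoring H3K27ac peak scored highest were picked after their values were seen. A member of 611 bp with an H3K4me3 score of 43 lay 71490 bp from its nearest protein-coding gene, ARF6, over a gap of 241 bp between H3K27ac peaks of 10888 and 7796 bp that both scored 3100. Inside PHLPP1, a phosphatase gene, a member of 2128 bp lay over a gap of 28 bp between H3K27ac peaks of 10631 and 5971 bp. A member 89630 bp from SOD2 had a gap of 1 bp between H3K27ac peaks that both scored 3100. Others of the 8 lay inside GRB14 (gap 138 bp), TAOK3 (47 bp) and CHST9 (35 bp), and outside genes near MMP20 (20 bp) and MAP1LC3B2 (40 bp). The members in TAOK3 (4355 bp) and GRB14 (3055 bp) were wider than at least 1 of their H3K27ac peaks.

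Where the gap fell relative to the start depended on its width. Taking the exact start base alone, the gap held a protein-coding start in 319 of the 2238 members with one (14.3%, interval 12.8% to 15.8%). Of 3315 such starts, 350 lay in a gap, 2871 in an H3K27ac peak and 94 outside the outer H3K27ac edges. Leaving out the last, 10.9% of starts lay in gaps, and gaps took up 9.62% of the bases between those edges. The order of these shares depended on the setting: they were 11.9% and 7.54% with H3K27ac scores of at least 100, and 5.74% and 23.7% when H3K27ac peaks under 500 bp apart were joined. The promoter table covers 300 bases, most of which lie before the start. Between the outer H3K27ac edges, gaps took up 15.7% of the bases in this promoter window and 8.85% of the other bases. A gap overlapped the window by at least 1 bp in 1043 of the 2238 members (46.6%, interval 44.5% to 48.7%), a share that is not comparable with that for the single start base.

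Narrow gaps were concentrated in the promoter window and wide gaps were scarce in it. All bases here were counted between the outer H3K27ac edges. Gaps of 100 to under 300 bp covered 10.8% of window bases and 1.52% of the other bases, 7.13 times as much. Gaps under 100 bp covered 2.37% and 0.427%, which is 5.54 times as much. For gaps of 300 to under 1000 bp the shares were 2.26% and 3.55%, and for gaps of 1000 bp or more 0.323% and 3.36%. The order thus turned over between the classes. Short breaks were denser at the promoter than elsewhere between these edges, and breaks of 1000 bp or more were nearly missing there.

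The distances in members with a single annotated start show the same. There were 1170 such members with 1363 gaps. The centre of the gap lay between -250 and 50 bp from the start in 264 of 542 gaps of 100 to under 300 bp (48.7%) and in 192 of 498 gaps under 100 bp (38.6%). It lay there in 24 of 242 gaps of 300 to under 1000 bp (9.92%) and in 0 of 81 gaps of 1000 bp or more. Of these 81, 74 (91.4%) had their centre more than 500 bp into the gene. Counted per position, 19.9% of members had a gap of 100 to under 300 bp at -100 bp, falling to 8.18% at the start and 1.66% at 100 bp into the gene.

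**Figure D4:**
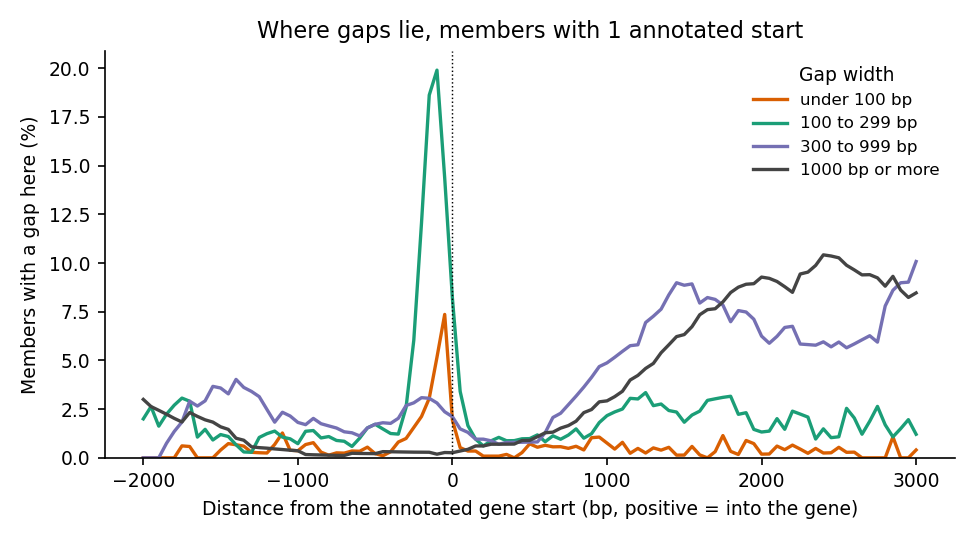
Share of members with 1 annotated start (%) that have a gap at each distance from the start in bp, in steps of 50 bp, by width class of the gap and over members that reach that position. Gaps of 100 to under 300 bp peak at 19.9% just before the start, and gaps of 1000 bp or more stay under 1% there and rise beyond 1000 bp into the gene.

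The H3K27ac peaks beside the gap also differed with its position. Around 517 gaps over a promoter window, the peak on the gene side was wider and stronger than the one before the start: median widths were 1143 and 858 bp, and median scores 291 and 136. The gene-side peak had the higher score at 338 of the 517 (65.4%, interval 61.1% to 69.5%). For 633 gaps centred more than 500 bp into the gene, the peak nearer the start had a median score of 669 and a width of 1806 bp, and the one farther into the gene 55.1 and 872 bp. There the farther peak scored higher in only 13.3%. For 132 gaps centred more than 500 bp before the start the order was the mirror image, with the peak nearer the start higher in 87.9%.

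The gaps compared here thus differed in form by where they lay. In one, the gap split H3K27ac at the promoter into peaks of more nearly equal score. In the second form, the peak nearer the start was mostly the stronger, and a weaker one followed farther into the gene, with medians of 669 and 55.1. Gaps well before the start mirrored this. Score ratios of single gaps were not compared by position, and members without an annotated start are not covered. These are descriptions of position and score, and the weaker peak was often near the lower limit of the list.

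Some of the 10 widest gaps at gene ends had the second form. TNFAIP3, which encodes the NF-κB inhibitor A20, had the widest, 3437 bp, from 1517 to 4953 bp into the gene. The H3K27ac peak at its start scored 1362, and the 2 beyond the gap scored 44.8 and 63.8. RPL11, a ribosomal protein gene, had a gap of 2841 bp that began 2726 bp into the gene, after peaks scoring 1366 and 100 and before one scoring 44.5. The H3K4me3 peak of RPL11 reached that last H3K27ac peak by a single base. BCL3, an NF-κB cofactor, differed: its gap of 2728 bp lay between a start peak scoring 2346 and inner peaks scoring 136 and 1215.

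The peaks on either side had similar scores at some other wide gaps. At CHCHD1, whose H3K4me3 peak also reached the ends of ZSWIM8 and POFUT4, peaks scoring 353 and 364 stood 2532 bp apart. Only the first was placed at the CHCHD1 start, and the second may belong to a neighbouring gene. At CXXC4 the scores were 320 at the start and 369 beyond a gap of 2458 bp. TRIM33 and HAUS3 again had the stronger peak at the start. TRIM33 had a gap of 2388 bp between the start peak at 3100 and an inner peak at 697, 4415 bp wide. HAUS3, which shares its member with POLN, had a gap of 2321 bp between peaks scoring 115 and 38.9.

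RAD1, a DNA damage checkpoint gene that shares its member with BRIX1, was the exception in direction when placed by its own start. Its gap of 2474 bp lay before the RAD1 start, from -3872 to -1399 bp. The gap was not placed relative to BRIX1, so it may lie on the gene side of that neighbour. For ZCCHC14 (gap 3014 bp) and SEMA6A (2797 bp) no start lay in the member in the table used, so no direction is given.

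Members with the most H3K27ac peaks were mostly rows of weak peaks beside 1 or more stronger ones. The H3K4me3 peak shared by SBF2 and ADM, the gene of the vasodilator peptide adrenomedullin, held 5 H3K27ac peaks scoring between 61.1 and 153, with gaps of 276, 2228, 29 and 68 bp. PRICKLE1, a planar polarity gene, had 5 whose scores were 39.6, 46.5, 48.3, 208 and 2288 in order along the chromosome. MCM3AP, with YBEY, had 5 scoring between 33.8 and 1313. At TRAF7, shared with RAB26, 5 peaks scored from 60.7 to 945, and the widest gap of 383 bp ended 1 bp past the TRAF7 start.

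The remaining members with 5 peaks were at TMT1A, PPA1, PMEPA1 and EXD3. Their widest gaps were 376, 351, 192 and 161 bp. At EXD3 the highest-scoring H3K27ac peak, at 3100, ran on past the member. PPP6R1 and CCND3, the gene of cyclin D3, followed with 4 peaks each and gaps of 1647 and 1288 bp. None of these 10 members had H3K27ac peaks that were all strong: in each, the lowest score was under 100.

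Divergent genes, which start close together and run in opposite directions, were common in members. A pair with starts within 1000 bp of each other lay in 597 of the 2369 members that held a start of any kind of gene (25.2%, interval 23.5% to 27%). The share was 19.5% in peaks with 1 H3K27ac peak and 9.66% in peaks with none. At matched width it did not stand apart: 5.06%, 18.8%, 31.4% and 31.0% in members by class against 5.12%, 16.3%, 31.5% and 34.3% in peaks with 1.

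Between the starts of a pair the gaps were denser. In 280 of the 597 members (46.9%) a gap lay between or over the starts. Gaps took up 23.4% of the bases between the starts and 8.01% of the rest of these members. The widest was at SBF2 and ADM, whose starts are 232 bp apart: the gap of 2228 bp ran from -115 to 2112 bp around the ADM start. FHDC1 and LOC729870 had starts 966 bp apart and a gap of 1345 bp, ZSWIM6 and LOC105378994 starts 42 bp apart and a gap of 1330 bp, and IDH3B, a subunit of a citric acid cycle enzyme, and IDH3B-DT starts 58 bp apart and a gap of 1203 bp. These 4 were picked for wide gaps and are not typical of the pairs.

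The promoters under a gap were compared with the other promoters in members by short sequence strings, counted on both strands of the 300 bases in the table. The CCAAT box, bound by NF-Y, was searched by its name as letters. The GC box, bound by SP factors, was searched as GGGCGG. The core bound by ETS factors was searched as CCGGAAG. The core bound by NRF1 was searched as GCGCATGC. The element recognised by BANP was searched as CTCGCGAG. The TATA box was searched as TATAAA. None contains another, though matches may overlap in place, and promoters of 1 gene can share bases. A match is a description of letters and not evidence of binding.

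CCAAT differed most in percentage points between promoters under a gap and the others. It occurred in 52.8% (interval 50.1% to 55.6%) of the 1291 promoters overlapped by a gap and in 33.7% (31.6% to 35.8%) of the 2024 other promoters in members. The others were like promoters at large: 32.0% in H3K4me3 peaks with 1 H3K27ac peak, 30.5% in those with none and 34.4% of all 21156 autosomal promoters in the table. In members with only 1 annotated start the difference was smaller, 50.9% against 37.2%. The promoters under a gap were slightly poorer in G and C, with a median of 65.0% against 66.3% in the other promoters.

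CCAAT matches lay inside the gap in a larger share than the bases of the window did. Of 1251 CCAAT matches in promoters under a gap, 763 (61.0%, interval 58.2% to 63.7%) fell in gap bases, which were 40.6% of the window. By position they were densest from -100 to -51 bp before the start, with 30.2 matches per 100 promoters under a gap and 17.3 in the other promoters of members. All promoters had the same preferred position, at 16.1 per 100. Gaps of 100 to under 300 bp were also most frequent near -100 bp. The share of matches in gaps was not compared at matched position, so it does not separate the gap from the position. The GC box matches fell in the gap in 52.7% of cases, GCGCATGC in 48.9%, CCGGAAG in 44.0% and CTCGCGAG in 41.0%. The TATA matches did so in 21 of 69 (30.4%), with an interval of 19.9% to 42.7% that includes the 40.6%.

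The other strings differed by fewer percentage points, although GCGCATGC differed by a larger ratio than CCAAT. GCGCATGC was in 9.30% of promoters under a gap, 4.79% of other promoters in members and 3.66% of all promoters. CCGGAAG was in 22.9% and 16.5%, with 20.7% in peaks with 1 H3K27ac peak and 12.9% of all promoters. GGGCGG was in 79.3% and 72.6%, and in 56.6% of all. CTCGCGAG was in 2.71% and 2.67%, which cannot be told apart, and in 1.38% of all. TATAAA was in 4.57% and 5.68%, with overlapping intervals, and in 9.51% of all promoters.

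Across the genome, 3227 of 19126 autosomal protein-coding genes had a member within 1 kb of an end, which is 16.9% of them. Of the 13421 genes with any H3K4me3 peak there, 24% had a member. In 84 genes there were 2 or more members, and 687 members served 2 or more protein-coding genes. The counts for 24 gene lists are read against the 16.9%. For lists in which every gene has an H3K4me3 peak, the 24% is the closer base. The lists were not matched for the width of the H3K4me3 peaks. Of all autosomal H3K4me3 peaks, 23.5% were members from 3000 to under 4000 bp, 34.2% from 4000 to under 6000 bp and 49.4% from there to the limit. The intervals of the cell cycle and hypoxia lists include the 34.2% and the 49.4%. The peaks at SLC2A1 (7897 bp) and ADM (7654 bp), for example, were in the widest class. How far width sets the shares of the lists was not tested. The lists are small, between 8 and 18 genes, so their intervals are wide.

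**Figure D5:**
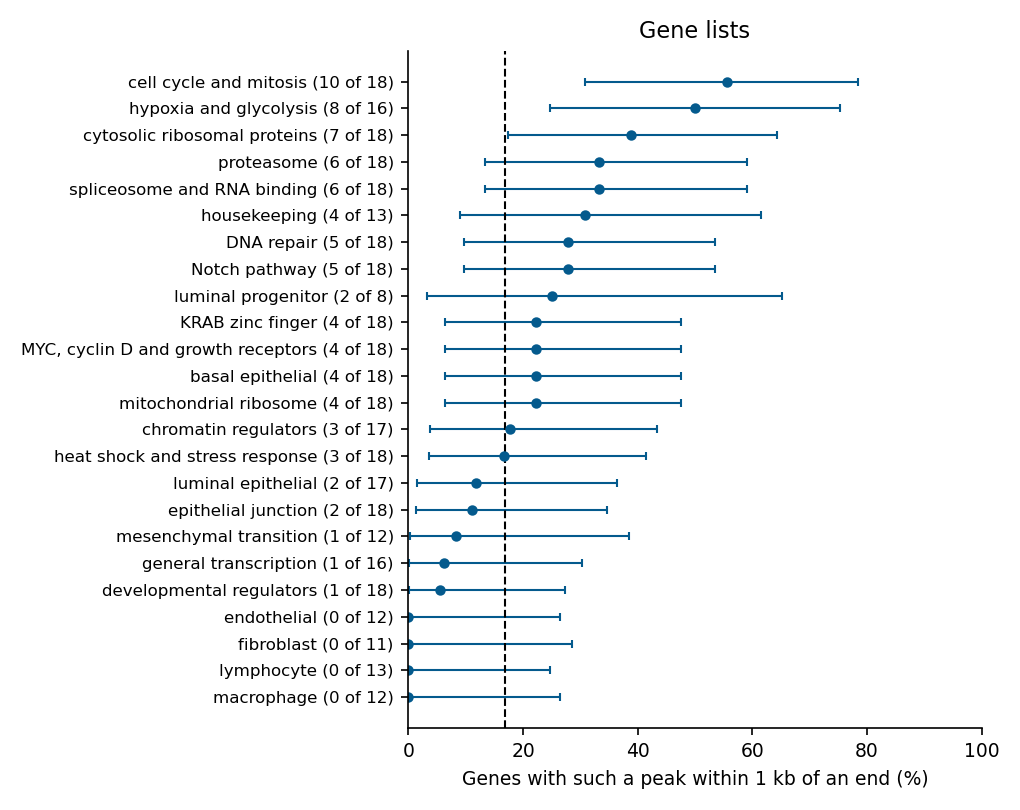
Share of the genes in each list (%) with a member within 1 kb of an end, with exact 95% intervals; the counts stand beside the names and the dashed line marks the share over all protein-coding genes, 16.9%. The lists of cell cycle, hypoxia and cytosolic ribosomal protein genes have intervals above the line, and the lists for other cell types are at 0. Among genes with an H3K4me3 peak at an end the share is 24%. The ribosomal interval includes that value and the hypoxia interval begins just above it. Neither line is matched for the width of the H3K4me3 peak.

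Among genes of the cell division cycle, 10 of 18 had a member (55.6%, interval 30.8% to 78.5%), and all 18 had an H3K4me3 peak. CCNB1, CCNA2 and CCNE1 encode cyclins and CDK1 encodes a cyclin-dependent kinase. At CCNA2 a start peak scoring 1579 was separated by 1130 bp from a peak of 44.4 inside the gene, at CDK1 peaks scoring 1451 and 35.3 stood 1044 bp apart, and at CCNB1 peaks of 1498 and 33.5 stood 266 bp apart. In these 3 pairs the weaker peak lay farther into the gene; CCNA2 had a further weak peak, scoring 34.3, on the other side of the start peak. In contrast, at CCNE1 a gap of 262 bp before the start, from -284 to -23 bp, split peaks scoring 1434 and 371. The others were CDK2, AURKA, BUB1, CDC20, MCM5 and PCNA. MKI67 and TOP2A had 1 H3K27ac peak each, scoring 3100 and 1471.

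Genes of the response to low oxygen and of glycolysis had a member in 8 of 16 (50%, interval 24.7% to 75.3%), and all 16 had an H3K4me3 peak. SLC2A1, the glucose transporter GLUT1, had 3 H3K27ac peaks and a gap of 1659 bp beginning 2025 bp into the gene. At HK2, a hexokinase, peaks scoring 1810 and 95.7 were 1271 bp apart, with the gap from 920 to 2190 bp into the gene. VEGFA, the growth factor for blood vessels, had peaks scoring 3100 and 121.5 only 22 bp apart, and TPI1, a glycolytic enzyme, peaks scoring 1746 and 40.1 at a distance of 286 bp. BNIP3, ADM, PDK1 and ANKRD37 also had members. CA9 and LDHA had 1 H3K27ac peak each.

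Lists of machinery used by all cells had shares from 6.25% to 38.9%, and of their intervals only that of the cytosolic ribosomal protein genes lies above 16.9%. All 18 of these ribosomal genes had an H3K4me3 peak, and the interval includes the 24% found among genes with such a peak. Cytosolic ribosomal protein genes had a member in 7 of 18 (38.9%, interval 17.3% to 64.3%), among them RPL4, RPL11 and RPS2. Proteasome genes had a member in 6 of 18, among them PSMA2, PSMA3 and PSMA5, and PSMB1, whose member also reaches TBP. The gap of 172 bp in that member lay from -189 to -18 bp before the TBP start, between H3K27ac peaks of like score, 412 and 426. At PSMA2 a gap of 120 bp, from -125 to -6 bp before the start, also lay between peaks of like score, 351 and 353.

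Splicing and RNA-binding genes had a member in 6 of 18, and the housekeeping list in 4 of 13, among them TBP, PPIA and TFRC. SF3B1, a core splicing factor, had a gap of 2219 bp from 988 to 3206 bp into the gene, between peaks scoring 1730 and 33.4. SRSF2 had a gap of 1734 bp, U2AF2 one of 154 bp and SRSF7 one of 183 bp that spanned its start. ACTB and GAPDH had wide H3K4me3 peaks (7544 and 6490 bp) with 1 H3K27ac peak. Genes of the mitochondrial ribosome had a member in 4 of 18 (MRPL2, MRPL9, MRPS6 and MRPS10), and general transcription genes in 1 of 16, GTF2B, which had 4 H3K27ac peaks.

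DNA repair genes had a member in 5 of 18. At BRCA1, which acts in repair of double-strand breaks, 3 H3K27ac peaks scored 248.5, 1146 and 33.6, and the widest gap, of 729 bp, ran from -83 to 645 bp around the start. At CHEK2, a checkpoint kinase, the gap of 193 bp spanned the start, at XRCC6 a gap of 173 bp ended before it, at -61 bp, and at RAD50 a gap of 119 bp lay about 1 kb into the gene. BRCA2 and PALB2 had 1 H3K27ac peak each. Chromatin regulators had a member in 3 of 17, the acetyltransferase genes EP300, CREBBP and KAT2A, whose products can acetylate histones. The zinc finger genes of the KRAB family had 4 of 18: ZNF43, ZNF93, ZNF140 and ZNF333.

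Lists of signalling genes had intervals that include 16.9%. In the Notch pathway 5 of 18 genes had a member (27.8%, interval 9.69% to 53.5%). At the receptor gene NOTCH3 peaks scoring 3100 and 850 were 149 bp apart, with the gap from 4653 to 4801 bp into the gene. At the ligand gene JAG1 the widest gap, of 739 bp, ran from -70 to 668 bp around the start. MAML1, a coactivator of Notch, had a gap of 144 bp just before the start, and the protease gene ADAM10 one of 32 bp. The NOTCH1 peak was 12380 bp wide, over the limit, and lay under a single H3K27ac peak of 24214 bp. Of the growth genes, 4 of 18 had a member (MYCN, CCND3, ERBB3 and PIK3CA). At MYCN both H3K27ac peaks were weak, 32.0 and 36.9, and 960 bp apart. The MYC peak was over the width limit and had 1 H3K27ac peak.

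Lists for breast cell types had shares from 11.1% to 25%, with intervals that include 16.9%. Basal epithelial genes had 4 of 18: KRT5, ITGB4, ITGA6 and SFN. KRT5, a keratin of basal cells, had peaks scoring 3100 and 108.5 with a gap of 303 bp between them, and SFN peaks of 1130 and 3100 with a gap of 81 bp. Genes of luminal progenitors had 2 of 8, KIT and ELF5. Luminal genes had 2 of 17, and at one of them, FOXA1, both H3K27ac peaks were weak (44.8 and 31.9), while the other, TBX3, had peaks of 3100 and 2887 with a gap of 202 bp. ESR1 and KRT14 had no H3K4me3 peak at their ends. Cell junction genes had 2 of 18, CDH1 and CLDN4. At CLDN4 both peaks scored 3100 and stood 52 bp apart.

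The remaining lists had shares from 0 to 16.7%. Heat shock and stress genes had 3 of 18 (HSPA8, HSPH1 and FOS), mesenchymal genes 1 of 12 (SNAI1, with a gap of 2027 bp), and developmental regulators 1 of 18 (SIX2). Heat shock gene HSPA8 had a gap of 1720 bp that began 2013 bp into the gene. Markers of macrophages (0 of 12), fibroblasts (0 of 11), lymphocytes (0 of 13) and endothelial cells (0 of 12) had no member, where the intervals reach up to 26.5%, 28.5%, 24.7% and 26.5%. Of these markers 4, 3, 3 and 6 had an H3K4me3 peak of any kind at an end, CD68 and COL1A1 among them. MARCO, a macrophage receptor gene whose name is part of the series' description of the cells, had none.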

How the data were processed

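H3K27ac and H3K4me3 were measured by ChIP-seq in HCC1599 cells, with 1 library each, and the input was not analysed here. Chromatin was cross-linked with formaldehyde and cut by sonication and micrococcal nuclease, per the labels' protocols. The submitters' processing notes name hg38, the peak caller MACS 1.4 and the aligner Bowtie2, without a version. The authors deposited 1 peak list per mark with a score per peak; neither a label nor a header states the unit of the score, and the read depth is unknown.

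The lists were overlapped with a minimum of 1 bp in Python 3.11.15 with pandas 2.3.3 and numpy 2.4.6, tested on simulated data and checked against bedtools 2.31.1, which gave a different number of H3K27ac peaks for 0 of 31074 H3K4me3 peaks. Intervals came from scipy 1.17.1 and plots from matplotlib 3.10.9. Gene ends came from a RefSeq gene table and starts, strands and sequences from a RefSeq promoter table, both of GRCh38.p14. The promoter table gave starts for 15101 of the 19126 protein-coding genes and none on chromosome 8, which held 58 members; a member with no start here may hold one that is not in the table.

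The members and the gene lists were chosen with earlier results of these data known. The gene lists have 385 different genes, of which 379 are on chromosomes 1 to 22. Genes were named by rule: the 10 widest gaps at a protein-coding gene end, the 10 members with the most H3K27ac peaks, the 10 with a gap over a start and the highest score of the weaker neighbour, the members on either side of the width limit, the 4 divergent pairs with the widest gap, and from each gene list up to 4 genes with a member and up to 2 without; further genes of a list were named after their values were seen, as were members away from gene ends. Gap classes, the promoter window comparison and the sequence strings were also chosen after values were seen. The alternatives were score minimums of 100, a 50% overlap, joining of near H3K27ac peaks, a width limit of 6000 bp, other distances to gene ends and between divergent starts, and genes of every kind.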

Additional observations from a re-analysis of the deposited data

Results flagged for a closer look

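Chromosome X was left out of the comparisons. There, 97 of 969 H3K4me3 peaks met the same rule (10%, interval 8.19% to 12.1%), against 11.8% on chromosomes 1 to 22, and their widest gaps had a median of 156 bp against 135 bp. It is listed because signal of the same kind stood in data that the comparisons did not use.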

How the results depend on the processing

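No paired analysis was possible because each mark has 1 library, and for the same reason no library could be left out. The number of members, 3681, became 1468 with H3K27ac peaks scoring at least 100, 1350 with that minimum in both lists, and 1229 and 497 when H3K27ac peaks under 200 and 500 bp apart were joined; the genes with a member, 3227, became 1341, 1339, 1274 and 535. The median widest gap, 135 bp, became 119, 124.5, 403 and 846 bp in these settings, and 127 bp with a width limit of 6000 bp. Joining removes short gaps by construction; for the other shifts the cause was not tested. The share of members at protein-coding ends, 69.0%, became 75.41% with both minimums, 80.85% with 50% of the H3K27ac peak inside, 79.5% and 84.1% with joining, 65.82% with the lower width limit, 71.15% within 2.5 kb and 76.26% with genes of every kind. The share whose gap holds a start, 14.3%, was 16.24% with either minimum of 100, 7.427% with joining under 500 bp and 16.08% with starts of every kind. The share with divergent starts, 25.2%, was 21.83% with joining under 500 bp and 22.92% with starts within 500 bp. The next settings were chosen after seeing the data. Between the outer H3K27ac edges, gaps under 300 bp covered 6.78 times as large a share of promoter window bases as of other bases. This fold was 12.92 with either minimum, 7.221 with 50% inside, 6.761 with the lower width limit and 8.176 in members with 1 start, where CCAAT stood in 37.21% of promoters without a gap. The fold stayed above 1 in each setting run, but it was not run with near H3K27ac peaks joined, which removes short gaps. Weak H3K27ac peaks and short gaps thus carry most of the count of members.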

Other observations

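The share of H3K4me3 peaks that were members varied between chromosomes. It was lowest on chromosome 8, with 58 of 1107 peaks (5.24%), and highest on chromosome 22, with 113 of 687 (16.4%), and chromosome 19, with 301 of 1880 (16.0%). On the other chromosomes it lay between 8.97% on chromosome 15 and 14.7% on chromosome 17.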
